A study of Mus musculus with 70 samples.

Results

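Amyloid pathology was compared with its control in ribosome-bound RNA of forebrain microglia from mice of 9 to 10 months. There were 5 libraries of APP/PS1 RiboTag mice (replicates 1 to 5) and 5 libraries of RiboTag mice without the APP/PS1 alleles (replicates 1, 2, 3, 4 and 7). These 10 libraries were chosen by their labels from the 70 of the series, and all genes of the table were examined. Mice of both groups were heterozygous for the Cx3cr1 CreERT2-IRES-eYFP allele and for the Rpl22 HA allele. They had been given tamoxifen at 100 µg/g on 3 consecutive days, so that Cre recombinase, active in cells that express Cx3cr1, switched on the HA-tagged ribosomal protein. Polysomes were then pulled down from whole PBS-perfused forebrain with an antibody against HA, without dissociating the tissue. Cx3cr1 also marks other brain macrophages, so the tag is not specific to microglia alone.

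Other libraries of the series were used only where stated. They were forebrain microglia of mice of 9 to 10 months injected with rAAV1-TauP301L, a virus that carries a mutant tau (n = 5), or with rAAV1-GFP (n = 5), and of males of 24 months (n = 4) or 3 months (n = 5). Saline RiboTag pulldowns of the LPS study (n = 4) and their bulk forebrain input (n = 4) served to show how strongly a gene was enriched by the pulldown. Mice of all these groups had also been given tamoxifen at 100 µg/g on 3 days. The labels give neither the sex of the APP/PS1 and control mice nor the APP/PS1 line or the promoter of its transgenes. Xist was 0.0829 to 0.135 RPKM in APP/PS1 and 0.0555 to 0.133 RPKM in control libraries, against 14.3 to 17.1 RPKM in females of 3 months in the ageing study. Nothing in the labels says that replicates are more than separate samples, so p-values measure the spread between these samples.

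Amyloid-β peptides are cut from the amyloid precursor protein APP by β-secretase and then by γ-secretase. Mice of amyloid models such as APP/PS1 deposit plaques, and microglia gather around them. There they take on a state known as disease-associated microglia, marked by genes for phagocytosis, lysosomes, lipid handling and chemokines. Entry into the full state is known to depend on the lipid-sensing receptor TREM2 and its adaptor TYROBP, while genes of resting, homeostatic microglia are often described as falling in plaque-associated cells.

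The APP/PS1 libraries held 26.7 to 33.6 M reads in genes and the controls 28.1 to 35.7 M. On log2(RPKM + 1), libraries correlated across genes at 0.985 to 0.990 within APP/PS1, at 0.984 to 0.987 within the controls and at 0.979 to 0.986 between the groups. Microglial genes were present in all 10 libraries. The summed level of 25 homeostatic microglia genes was 2717 to 3311 RPKM in APP/PS1 and 2629 to 3233 RPKM in control libraries. Tmem119, a marker of parenchymal microglia, was 5.32 higher on the log2 scale in saline pulldowns than in their input, and P2ry12, the ADP receptor of resting microglia, was 5.34 higher. Neuronal genes remained in the pulldowns, with 20 neuron markers summing to 662 to 704 RPKM in APP/PS1 and 678 to 727 RPKM in control libraries.

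Levels are in RPKM, reads per 1000 bases of a length that the table names coding length and gives for noncoding genes too. They are scaled to the authors' total for each library. That total, recovered from the steps of the values, was 2.02 to 2.06 times the reads in genes in APP/PS1 and 1.99 to 2.04 times in control libraries. A filter kept the 14431 genes that averaged 1 RPKM or more over the 10 libraries, of which 189 passed an adjusted p of 0.05 with limma (1.31%). In the APP/PS1 pulldowns 75 genes were higher (0.52% of those tested) and 114 were lower (0.79%). The higher genes moved further: their median log2 fold change was 0.46, and 11 rose at least 2-fold, while the lower genes had a median of -0.24 and 0 fell by as much. The split depended on scaling, since with median-of-ratios scaling 103 genes were higher and 43 lower, and the median over all genes tested shifted to -0.00 from -0.03. All 75 higher genes and 43 of the 114 lower ones were called under that scaling. When any 1 library was left out, 62 to 243 genes were called. The count was 62 without APP/PS1 replicate 1, 93 without APP/PS1 replicate 2, 90 without APP/PS1 replicate 3, 91 without APP/PS1 replicate 5, 104 without control replicate 1, 106 without control replicate 2, 89 without control replicate 3 and 64 without control replicate 4. Libraries of the groups did not overlap for 70 of the 75 higher and 112 of the 114 lower genes, against 1.23% of all genes with APP/PS1 above and 4.15% with APP/PS1 below. Of the 75 higher genes 31 were called in all 10 of these fits, and of the 114 lower genes 24 were.

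**Figure D1:**
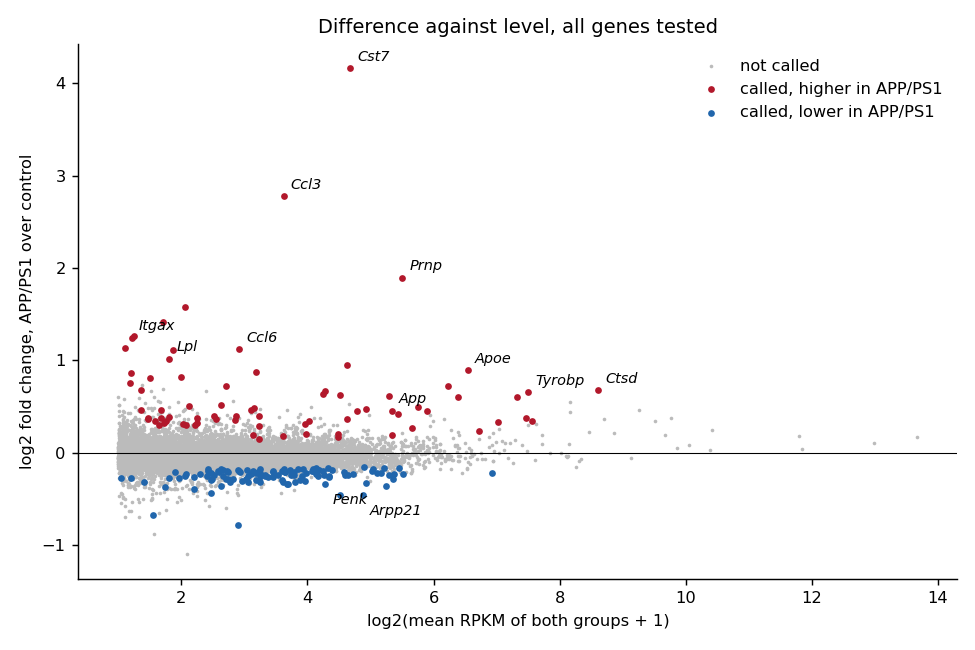
Difference against level for the 14431 genes tested. The x axis is log2 of the mean RPKM of both groups plus 1, and the y axis is the log2 fold change of APP/PS1 over control. Red points are the 75 genes called higher, blue points the 114 called lower and grey points the rest. Cst7, Ccl3 and Prnp stand above 1.8, and the lower genes lie close to the grey band.

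Genes of disease-associated microglia were the group that rose most broadly. Of 38 genes listed, 37 were in the table and 34 passed the filter on low values, and 23 of those 34 were higher in APP/PS1 and 0 lower. Their median log2 fold change was 0.64, against -0.03 over all genes tested. Of the 34, 28 had a control mean of at least 1 RPKM, so that they did not pass the filter through the APP/PS1 libraries alone, and 20 of these 28 were called. The count ranged from 16, without APP/PS1 replicate 1, to 27, without APP/PS1 replicate 4, when 1 library was left out. In bulk RNA of this kind, more cells of a state and more RNA per cell cannot be told apart.

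The gene that changed most was Cst7, which encodes cystatin F, an inhibitor of lysosomal cysteine proteases (ENSMUSG00000068129, mm10 chr2:150570415-150578944). It stood at 60.7, 52.8, 36.4, 26.0 and 61.9 RPKM in the APP/PS1 libraries, against 1.13, 1.93, 1.69, 1.64 and 1.58 RPKM in the controls. The lowest APP/PS1 library, replicate 4, was still far above every control. The means were 47.5 ± 15.8 and 1.59 ± 0.29 RPKM (SD, n = 5 each), a 29.9-fold difference, with a log2 fold change of 4.16 ± 0.21 (standard error, adjusted p = 1.84e-06, limma). This scale of log2(RPKM + 1) understates the change of weakly expressed genes.

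Chemokines of the CC family followed. Ccl3, which attracts monocytes and other leukocytes, was 28.0, 19.7, 18, 11.3 and 25.3 RPKM in APP/PS1, against 2.49, 3.78, 1.04, 1.83 and 1.49 RPKM in controls. No values overlapped, and the log2 fold change was 2.78 ± 0.25 (adjusted p = 3.79e-04, limma). Ccl4, its close relative, was 3.28, 2.18, 2.71, 0.948 and 2.85 RPKM in APP/PS1 and 0.318, 0.581, 0.271, 0.51 and 0.18 RPKM in controls (log2 fold change 1.27 ± 0.18, adjusted p = 0.00847, limma). Ccl6 rose by 1.13 ± 0.09, with 9.39 ± 1.33 RPKM in APP/PS1 and 3.74 ± 0.449 RPKM in controls (SD, n = 5 each).

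Surface receptors of the state were also higher. Itgax, the CD11c integrin chain of complement receptor CR4, was 2.46, 3.03, 1.76, 1.57 and 2.52 RPKM in APP/PS1 and 0.32, 0.401, 0.5, 0.285 and 0.286 RPKM in controls. Every APP/PS1 library was above every control, and the log2 fold change was 1.25 ± 0.11 (adjusted p = 3.79e-04, limma). Gpnmb, a transmembrane glycoprotein of late endosomes and lysosomes, was 2.75, 2.07, 1.55, 1.45 and 1.95 RPKM in APP/PS1 and 0.243, 0.354, 0.351, 0.402 and 0.313 RPKM in controls. Its difference was 1.13 ± 0.10 (adjusted p = 3.79e-04, limma), and in 1 of the 10 leave-one-out fits it fell under the filter on low values. Itgax, Gpnmb and Ccl4 were under 1 RPKM on average in controls and passed the filter through the APP/PS1 libraries. Axl, a TAM receptor that binds phosphatidylserine on dying cells through GAS6, was 4.13 ± 0.952 RPKM in APP/PS1 and 1.86 ± 0.22 RPKM in controls (SD, n = 5 each), with a log2 fold change of 0.82 ± 0.12.

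Clec7a, which encodes the β-glucan receptor Dectin-1, fell outside the naming rule because the table annotates it as a polymorphic pseudogene, and it was added after its values were seen. It was 6.49, 5.67, 5.42, 2.98 and 5.66 RPKM in APP/PS1, against 1.28, 1.33, 1.23, 0.698 and 0.805 RPKM in controls (log2 fold change 1.57 ± 0.16, adjusted p = 7.98e-04, limma). The groups did not overlap. A second Clec7a identifier covers much of the same span and was also higher, so how reads were divided between the pair is uncertain.

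**Figure D2:**
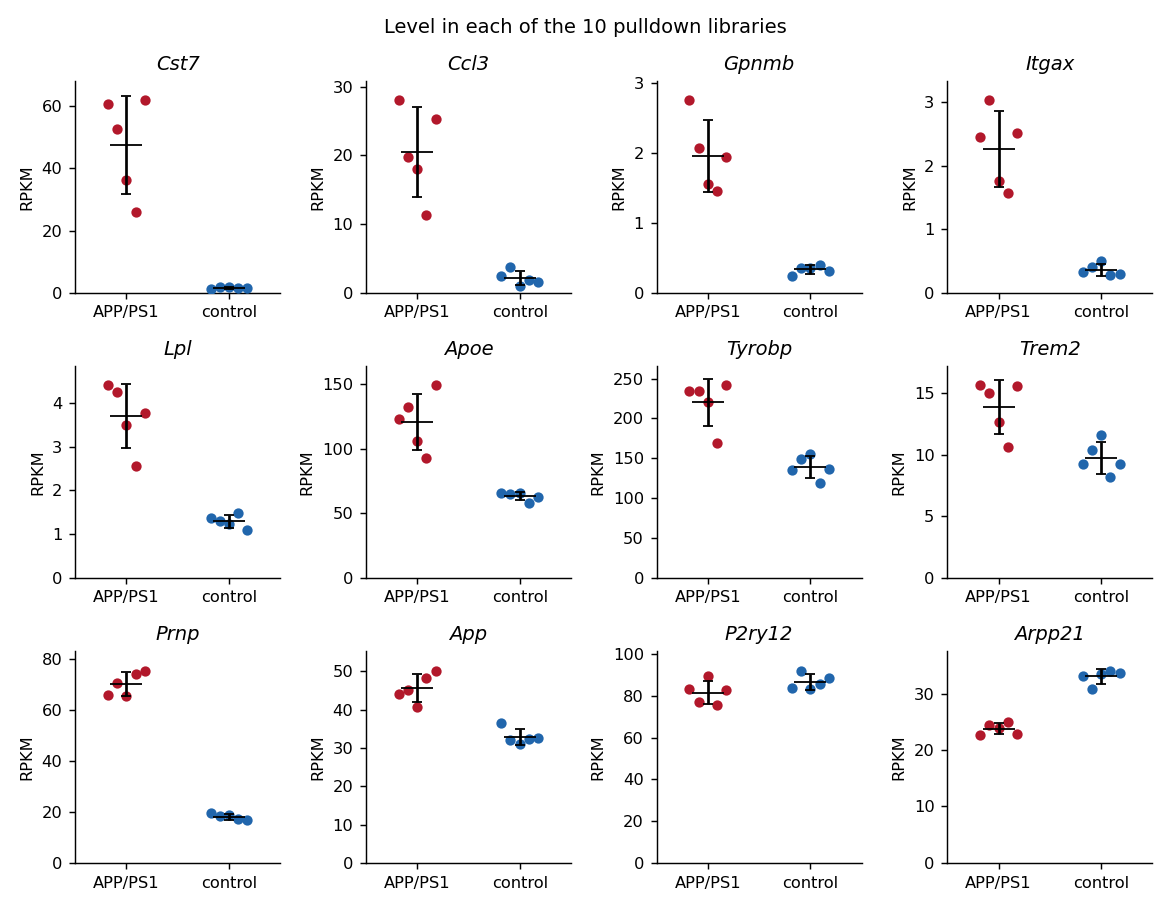
RPKM in each library for 12 genes, with the 5 APP/PS1 libraries in red at the left of each panel and the 5 controls in blue at the right. Black bars are the mean ± SD. The groups are apart for all genes shown except Trem2 and P2ry12, and Arpp21 is the gene that is lower in APP/PS1.

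The promoters of 4 of these genes are given as context for genes that moved together. They were the disease-associated genes with the largest increase among those named by rule that have an entry in RefSeq's promoter table on GRCm38.p6 (mm10). Ccl4 is named only. Each line holds the 250 bases before the start, 5′ to 3′ on the gene's strand. Capitals mark matches, on either strand, to the E-box CACGTG, bound by MITF and TFE factors, to GAGGAA, the core of the site of PU.1, or to the AP-1 site TGACTCA, which reads TGAGTCA on the other strand.
Cst7, chr2:150570165-150570414, plus strand: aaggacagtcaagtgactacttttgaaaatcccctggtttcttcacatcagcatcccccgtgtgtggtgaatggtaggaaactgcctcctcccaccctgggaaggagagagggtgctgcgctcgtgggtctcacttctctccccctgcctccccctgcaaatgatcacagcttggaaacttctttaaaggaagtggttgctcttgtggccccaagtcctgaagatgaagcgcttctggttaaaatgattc
Ccl3, chr11:83649379-83649628, minus strand: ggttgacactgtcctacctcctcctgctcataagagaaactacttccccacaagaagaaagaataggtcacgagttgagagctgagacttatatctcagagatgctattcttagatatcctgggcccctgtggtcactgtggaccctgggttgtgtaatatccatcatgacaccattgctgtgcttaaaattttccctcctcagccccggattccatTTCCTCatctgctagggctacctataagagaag
Itgax, chr7:128129300-128129549, plus strand: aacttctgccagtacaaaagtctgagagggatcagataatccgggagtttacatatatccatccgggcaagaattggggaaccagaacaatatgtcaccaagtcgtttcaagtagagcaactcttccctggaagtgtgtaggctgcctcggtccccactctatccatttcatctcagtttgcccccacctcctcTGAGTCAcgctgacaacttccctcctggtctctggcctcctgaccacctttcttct
Gpnmb, chr6:49036268-49036517, plus strand: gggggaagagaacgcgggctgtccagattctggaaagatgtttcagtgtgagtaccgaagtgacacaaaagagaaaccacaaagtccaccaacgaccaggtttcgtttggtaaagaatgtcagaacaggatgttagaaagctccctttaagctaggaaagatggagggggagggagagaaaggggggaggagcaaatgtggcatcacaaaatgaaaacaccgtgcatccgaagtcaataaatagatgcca
The Ccl3 window held 1 PU.1 core, whose first base lies 33 bases before the start, and the Itgax window held 1 AP-1 site at 56 bases. None of the 3 motifs was in the Cst7 or Gpnmb window, and no matches overlapped.

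Over the called disease-associated genes, 18 of 23 had a promoter in the table, of which 7 held the PU.1 core (38.9%), 3 the E-box (16.7%) and 1 the AP-1 site (5.56%). Among the 9404 tested genes with a promoter the same motifs were in 22.3%, 8.54% and 2.54%. Of the 75 genes called higher, 56 had a promoter, and the shares were 33.9%, 8.93% and 10.7% in the same order. Of the 114 genes called lower, 82 had one, with 26.8%, 9.76% and 2.44%. These matches are a description of letters and were not tested.

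Genes of lipid handling moved in part. Lpl, the lipoprotein lipase that frees fatty acids from triglycerides, was 4.41, 4.27, 3.49, 2.57 and 3.77 RPKM in APP/PS1 and 1.37, 1.3, 1.22, 1.49 and 1.09 RPKM in controls. The groups did not overlap, and the log2 fold change was 1.02 ± 0.10 (adjusted p = 7.98e-04, limma). Apoe, the main carrier of lipids between brain cells and the strongest common risk gene of late-onset Alzheimer's disease in humans, was 123, 133, 106, 93.0 and 149 RPKM in APP/PS1, against 65.8, 64.9, 65.6, 58.2 and 63.1 RPKM in controls. Its log2 fold change was 0.90 ± 0.11 (adjusted p = 0.00246, limma). Together with Gm2a, which encodes the activator of GM2 ganglioside breakdown, they were the 3 of 28 tested lipid genes that rose, and 0 fell. Gm2a was called in 1 of the 10 leave-one-out fits, the one without APP/PS1 replicate 4, with adjusted p up to 0.106 without APP/PS1 replicate 1 (limma). The list's median of 0.03 lay near that of all genes.

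Lysosomal genes rose in a large block, 15 of 36 tested being higher and 0 lower, with a median log2 fold change of 0.26. Over all genes tested 0.52% were higher. Of the 36, 35 had a control mean of at least 1 RPKM, and 14 of these 35 were called. The list shares members with that of disease-associated microglia, among them Cst7, Gpnmb and Ctsb, so these counts are not independent. Cd68, a lysosomal membrane glycoprotein of phagocytes, was 92.6 ± 11.9 RPKM in APP/PS1 and 55.3 ± 3.55 RPKM in controls (SD, n = 5 each), a log2 fold change of 0.73 ± 0.08 (adjusted p = 0.00202, limma). Ctsb, the cysteine protease cathepsin B, averaged 101 ± 12.3 RPKM in APP/PS1 and 65.6 ± 3.73 RPKM in controls, and Grn, which encodes progranulin, averaged 67.5 ± 6.14 and 49.0 ± 3.65 RPKM in the same order. Their differences were 0.60 ± 0.08 and 0.45 ± 0.07. Other members, listed after their values were seen, were the aspartic protease Ctsd at 482 ± 80.8 RPKM in APP/PS1 and 298 ± 33.0 RPKM in controls, and the β-glucuronidase Gusb at 6.27 ± 0.785 and 4.05 ± 0.198 RPKM. The tetraspanins Cd63 and Cd9 rose by 0.63 ± 0.09 and 0.67 ± 0.09. The count fell to 8 without APP/PS1 replicate 1, to 9 without control replicate 4, and to 10 without APP/PS1 replicate 2 or replicate 5. Ctsd was not called in 6 of the 10 leave-one-out fits, with adjusted p up to 0.065 without control replicate 4.

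The receptor complex of TREM2 gave an uneven picture. Tyrobp, which carries the signal of TREM2 and other receptors, was 235, 234, 221, 170 and 241 RPKM in APP/PS1 and 135, 149, 156, 119 and 136 RPKM in controls. It rose by 0.65 ± 0.10 on the log2 scale (adjusted p = 0.0122, limma), and no values overlapped. Trem2 itself was 15.6, 15.0, 12.7, 10.6 and 15.5 RPKM in APP/PS1 and 9.21, 10.4, 11.6, 8.21 and 9.27 RPKM in controls. Replicate 4 of APP/PS1 lay below the highest control, and with 0.47 ± 0.11 Trem2 missed the threshold (adjusted p = 0.0588, limma). On the recovered reads, limma voom gave it an adjusted p of 0.00163. Of 24 tested plaque receptors and adaptors 7 were higher and 0 lower, with a median of 0.20. Apart from those named above these were the inhibitory Fc receptor Fcgr2b and the Toll-like receptor Tlr2, at 0.36 ± 0.06 and 0.34 ± 0.07. Tlr2 was called in 2 of the 10 leave-one-out fits. Of the 24, 23 had a control mean of at least 1 RPKM, and 6 of these 23 were called.

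Homeostatic genes did not show a fall. Of 25 tested, 0 were called higher and 0 lower by limma, where 5 had an unadjusted p under 0.05, as did 2533 of all 14431 genes (17.6%), and 3 were called on the recovered reads by limma voom. Their median log2 fold change was 0.06. P2ry12 was 83.2, 76.8, 89.3, 75.5 and 82.6 RPKM in APP/PS1 and 83.5, 92.1, 83.3, 85.7 and 88.7 RPKM in controls. Tmem119 was 64.0, 60.8, 67.9, 57.5 and 66.8 RPKM in APP/PS1 and 62.7, 72.2, 75.4, 63.5 and 85.8 RPKM in controls. Both pairs of groups overlapped, with log2 fold changes of -0.09 ± 0.05 and -0.17 ± 0.08 (adjusted p = 0.393 and 0.304, limma). Cx3cr1, the fractalkine receptor, whose locus also drives Cre in these mice, was 24.7 ± 1.74 RPKM in APP/PS1 and 25.4 ± 2.44 RPKM in controls (SD, n = 5 each). Its log2 fold change was -0.03 ± 0.07 as deposited and 0.00257 after scaling.

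**Figure D3:**
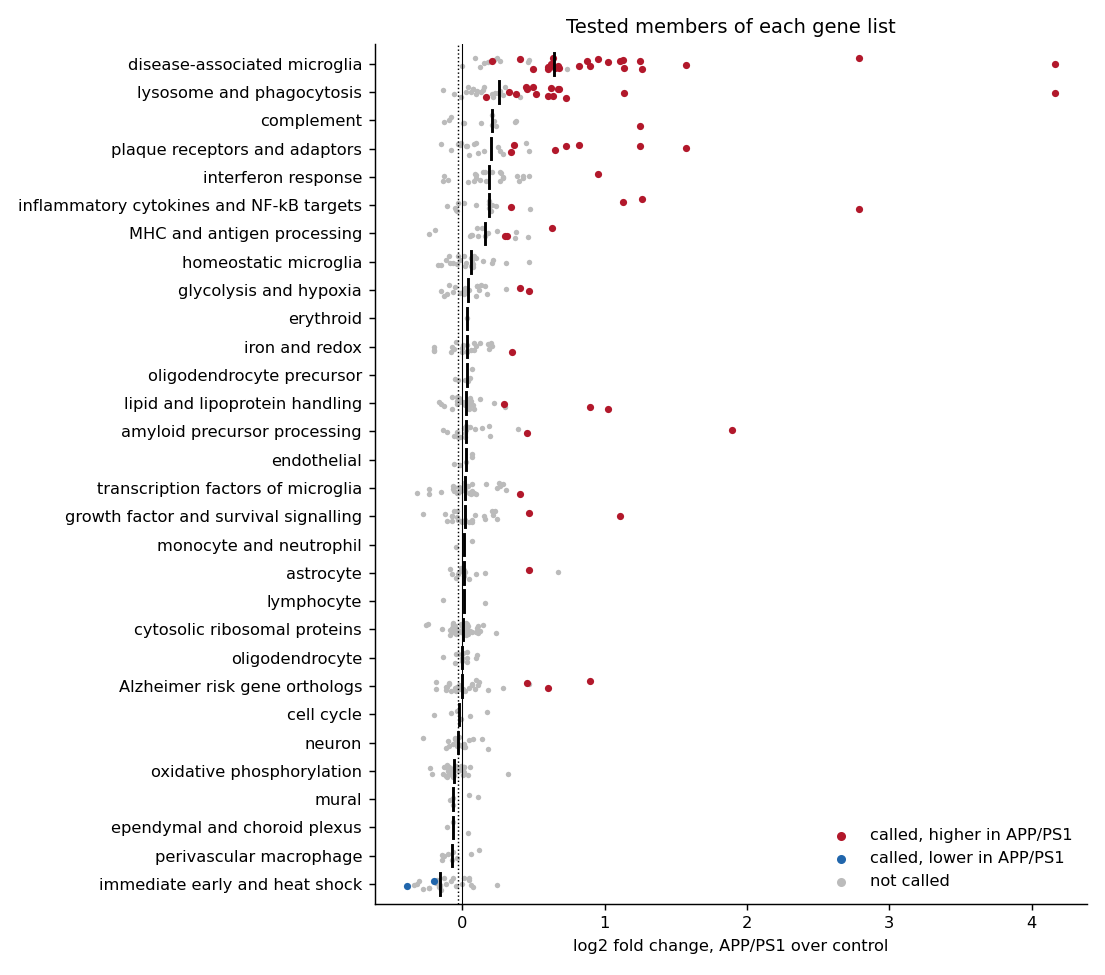
Log2 fold change of APP/PS1 over control for every tested member of the 30 gene lists. Each point is a gene, red where called higher, blue where called lower and grey where not called, and black bars are list medians. The dotted line is the median of all genes tested, -0.03. The lists of disease-associated microglia and of lysosome and phagocytosis hold 23 and 15 of the red points, and the homeostatic list holds 0. A gene in several lists, such as Cst7, is drawn in each of them.

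Among immune programs that mark other microglial states few members passed the test. Of 24 tested interferon response genes 1 was higher, Lgals3bp, a secreted glycoprotein that binds galectin-3, at 37.5, 36.1, 32.5, 19.4 and 33.5 RPKM in APP/PS1 and 13.7, 18.3, 15.1, 16.6 and 14.5 RPKM in controls. Replicate 4 stood apart from the other APP/PS1 libraries and only just above the highest control. The median of the interferon list was 0.19, 13 of its 24 members had an unadjusted p under 0.05 (17.6% over all genes tested), and 1 to 8 were called when 1 library was left out. By limma voom 7 of the 24 were called, where 423 of all 14431 genes were. Of 18 inflammatory genes 4 were higher, namely the chemokines Ccl3, Ccl4 and Ccl6 and the receptor Tlr2, while Il1b, Tnf and Il6 were under the filter on low values. Of the 18, 17 had a control mean of at least 1 RPKM, and 3 of these 17 were called. Among the 18, 8 had an unadjusted p under 0.05, and 6 were called by limma voom.

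Complement gave 1 called gene of 13, Itgax, at a list median of 0.21. Itgax passed the filter through the APP/PS1 libraries, and of 11 complement genes with a control mean of at least 1 RPKM 0 were called. Of the 13, 7 had an unadjusted p under 0.05 (17.6% over all genes tested). By limma voom 4 of the 13 were called, where 423 of all 14431 genes were. C1qa, a chain of the recognition protein C1q, was 79.7 ± 9.23 RPKM in APP/PS1 and 61.8 ± 9.79 RPKM in controls (SD, n = 5 each) and was not called (adjusted p = 0.108, limma). On the recovered reads, limma voom gave C1qa an adjusted p of 0.0121. Of 17 genes of antigen presentation 9 had an unadjusted p under 0.05, and 6 were called by limma voom. By limma 3 were higher. They were the class I gene H2-D1 (0.63 ± 0.13), the non-classical H2-T23 (0.30 ± 0.06) and H2-DMa (0.32 ± 0.06), whose product loads peptides onto class II molecules. These 3 calls were weak, since H2-D1 and H2-T23 were called in 1 of the 10 leave-one-out fits each and H2-DMa in 3, and the adjusted p reached 0.101 for H2-D1 without APP/PS1 replicate 1 and 0.108 for H2-T23 without control replicate 4.

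Growth factor genes gave 2 higher of 26. Spp1, which encodes osteopontin, was 5.53, 4.26, 3.51, 2.08 and 4.56 RPKM in APP/PS1, against 1.22, 2.59, 0.801, 1.22 and 0.793 RPKM in controls. Control replicate 2 lay above APP/PS1 replicate 4, and the difference of 1.11 ± 0.22 (adjusted p = 0.0377, limma) was called in 2 of the 10 leave-one-out fits. Csf3r, the receptor of granulocyte colony-stimulating factor, was higher by 0.47 ± 0.09 and was likewise called in 2 of 10. In both, the adjusted p was highest without APP/PS1 replicate 1, at 0.0912 for Spp1 and 0.0837 for Csf3r. Hif1a, the oxygen-regulated transcription factor, and Egln3, a prolyl hydroxylase that acts on it, were the 2 of 22 glycolysis and hypoxia genes that rose, by 0.40 ± 0.06 and 0.47 ± 0.10. Egln3 was called in 1 of the 10 leave-one-out fits, the one without APP/PS1 replicate 4, with adjusted p up to 0.0946 without APP/PS1 replicate 5 (limma), so that in the other 9 fits Hif1a was the 1 gene called. Hif1a was also the 1 of 31 microglial transcription factors that did.

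Slc11a1, the metal transporter NRAMP1 of phagosomes, was the 1 of 23 iron and redox genes that rose (0.35 ± 0.07, adjusted p = 0.0436, limma), and it was called in 2 of the 10 leave-one-out fits. Of 30 orthologs of Alzheimer risk genes 3 were higher, Apoe, Ctsb and Grn, and the list median was -0.01. Spi1, which encodes PU.1, averaged 12.9 RPKM in APP/PS1 and 10.4 RPKM in controls (adjusted p = 0.0890, limma). No member was called among 33 genes of oxidative phosphorylation, 46 cytosolic ribosomal proteins and 6 tested cell cycle genes, of which 5, 4 and 1 had an unadjusted p under 0.05, where 17.6% of all genes did. By limma voom 0, 1 and 0 of them were called.

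Genes of amyloid precursor processing were read separately. Prnp, the prion protein gene (ENSMUSG00000079037, mm10 chr2:131909928-131938429), was 65.8, 70.5, 65.6, 74.0 and 75.5 RPKM in APP/PS1, against 19.7, 18.3, 18.8, 17.3 and 16.7 RPKM in controls. This was a 3.87-fold difference with little spread (log2 fold change 1.90 ± 0.05, adjusted p = 6.25e-09, limma). App was 44.1, 45.1, 40.7, 48.2 and 50.2 RPKM in APP/PS1 and 36.5, 32.1, 31.0, 32.5 and 32.7 RPKM in controls, without overlap, and rose by 0.46 ± 0.06 (adjusted p = 0.00474, limma).

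Prnp and App were also the 2 of 19 tested genes of amyloid precursor processing that were called, and both are more abundant outside the pulled-down cells. In saline mice their pulldown level was below that of the bulk input, by -1.48 for Prnp and -1.05 for App on the log2 scale. The library ranked lowest among APP/PS1 was replicate 3 for both. Reads of a transgene that shares sequence with either mouse gene cannot be told apart from reads of that gene in this table. The annotation places a predicted gene over Prnp and another over App. Mapt, which encodes tau, averaged 10.2 ± 0.453 RPKM in APP/PS1 and 10.0 ± 0.407 RPKM in controls (SD, n = 5 each).

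The genes that were lower in APP/PS1 changed by less. Arpp21, a cAMP-regulated phosphoprotein gene of neurons, was 22.7, 24.4, 23.8, 24.9 and 22.8 RPKM in APP/PS1, against 33.1, 30.8, 33.5, 34.1 and 33.7 RPKM in controls (log2 fold change -0.46 ± 0.04, adjusted p = 2.75e-04, limma). Tnfaip8l3, a lipid transfer protein gene, was 18.4, 18, 18.8, 19.1 and 17.3 RPKM in APP/PS1 and 24.3, 27.1, 26.0, 26.7 and 23 RPKM in controls (-0.45 ± 0.05, adjusted p = 0.00111, limma). Both were lower in every APP/PS1 library than in any control and were called in all 10 leave-one-out fits. The same was true of Ngfrap1, also known as Bex3, and of Penk, the precursor of enkephalin peptides, at -0.35 ± 0.05 and -0.33 ± 0.05. Arpp21 spans the microRNA gene Mir128-2 and other annotated transcripts, as 81 of the 189 called genes overlap another gene, and the sources here do not say whether counting used the strand.

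Of 26 genes of the immediate early and heat shock responses that were tested, 2 were lower and 0 higher, at a median of -0.15. Npas4, a transcription factor that neurons switch on with activity, was 3.06, 3.0, 2.92, 2.69 and 3.08 RPKM in APP/PS1 and 3.92, 3.87, 5.2, 3.76 and 4.21 RPKM in controls. It fell by 0.39 on the log2 scale, with a standard error of 0.07 (adjusted p = 0.0224, limma), and its call was lost without APP/PS1 replicate 1, 2 or 3 (0.0583, 0.0502 and 0.0553). Hsph1, a heat shock protein of the 110 class, fell by 0.20, with 14.6 ± 0.302 RPKM in APP/PS1 and 17.0 ± 0.561 RPKM in controls (SD, n = 5 each).

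The remaining lower genes named by rule were less stable. Tesc, which encodes the calcium-binding protein tescalcin, Nme3, a nucleoside diphosphate kinase, and Serpini1, which encodes neuroserpin, had log2 fold changes of -0.43 ± 0.09, -0.36 ± 0.07 and -0.34 ± 0.07. Nme3 overlaps Mapk8ip3 and Mrps34. They were called in 3, 6 and 2 of the 10 leave-one-out fits (adjusted p up to 0.101 for Tesc, 0.0737 for Nme3 and 0.0834 for Serpini1). After median-of-ratios scaling the adjusted p was 0.0674 for Tesc and 0.0516 for Serpini1. Cd52, a surface glycoprotein of leukocytes among the 12 highest genes, was similarly uncertain, at 0.87 ± 0.16 and called in 3 of 10.

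Enrichment by the pulldown differed between the sets. Throughout, it was the log2 ratio of the mean saline pulldown to the mean input, with 1 RPKM added to each mean. Of the 75 higher genes 37 were at least 2-fold more abundant in saline pulldowns than in input (49.3%), as were 8 of the 114 lower genes (7.02%) and 12.9% of all genes tested. The median pulldown over input on the log2 scale was 0.99 for the higher genes, 0.35 for the lower genes and 0.39 for all genes. Tyrobp (5.09), Cd68 (4.92) and Grn (3.27) were strongly enriched, while Cst7 stood at 0.42 and Gpnmb at -0.00 in these saline mice. Adding 1 RPKM pulls the values of weakly expressed genes toward 0, so a value near 0 does not by itself show a lack of enrichment.

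Listed markers of other cells moved little. Arpp21 and Npas4, given above as lower, are genes of neurons outside these lists. None of the tested members of the lists for neurons (20), oligodendrocytes (13), oligodendrocyte precursors (6), endothelial cells (5), mural cells (5), ependyma and choroid plexus (3), perivascular macrophages (9), monocytes and neutrophils (2), lymphocytes (2) and erythroid cells (1) were called by limma. These lists hold 65 different tested genes, of which 5 had an unadjusted p under 0.05 (17.6% over all genes tested) and 1, a neuronal gene, was called by limma voom. The 18 monocyte and neutrophil markers summed to 4.70 to 5.83 RPKM in APP/PS1 and 5.15 to 6.24 RPKM in controls, and Elane was at 0 in all 10 libraries. The 11 perivascular macrophage markers summed to 22.4 to 30.1 RPKM in APP/PS1 and 26.3 to 31.1 RPKM in controls.

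Among 14 astrocyte genes 1 was higher, Gfap, the intermediate filament of reactive astrocytes. It was 2.6, 2.99, 2.4, 2.5 and 3.13 RPKM in APP/PS1 and 1.6, 1.84, 1.72, 1.71 and 1.58 RPKM in controls (log2 fold change 0.47 ± 0.06, adjusted p = 0.00456, limma). The astrocyte list as a whole summed to 164 to 183 RPKM in APP/PS1 and 159 to 179 RPKM in controls. Serpina3n, another gene of reactive astrocytes, was 5.76, 4.78, 4.53, 5.14 and 5.81 RPKM in APP/PS1 and 4.32, 4.75, 4.73, 1.23 and 1.24 RPKM in controls, with 2 controls far below all other libraries, and it was not called (adjusted p = 0.231, limma).

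With the mean of the neuron, astrocyte and oligodendrocyte lists in each library as a covariate, 49 of the 75 higher and 60 of the 114 lower genes were still called, along with 21 disease-associated genes in all. With the mean of the homeostatic list as a covariate, an alternative added after the data were seen, these numbers were 48, 48 and 21.

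The disease-associated genes moved together across the APP/PS1 libraries. Replicate 4 was the lowest of the 5 for 23 of the 23 called genes and for 59 of all 75 higher genes (78.7%), where it was lowest for 18% of all genes tested. The summed level of the 23 genes was 1605, 1512, 1388, 1084 and 1631 RPKM in APP/PS1 replicates 1 to 5, against 757 to 924 RPKM in controls. Replicate 4 also had the lowest homeostatic sum of its group, 2717 RPKM against 3006 to 3311 RPKM in the other 4 APP/PS1 libraries, and the lowest number of reads in genes, 26.7 M. Control replicate 4 likewise had the lowest homeostatic sum of its group, 2629 RPKM, and the fewest reads in genes, 28.1 M. It was the lowest control for 10 of the 23 genes, and their sum was lowest in it, at 757 RPKM. The part of APP/PS1 replicate 4 in the results was not tested beyond leaving it out, which raised the number of called genes to 243, of which 125 were higher.

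**Figure D4:**
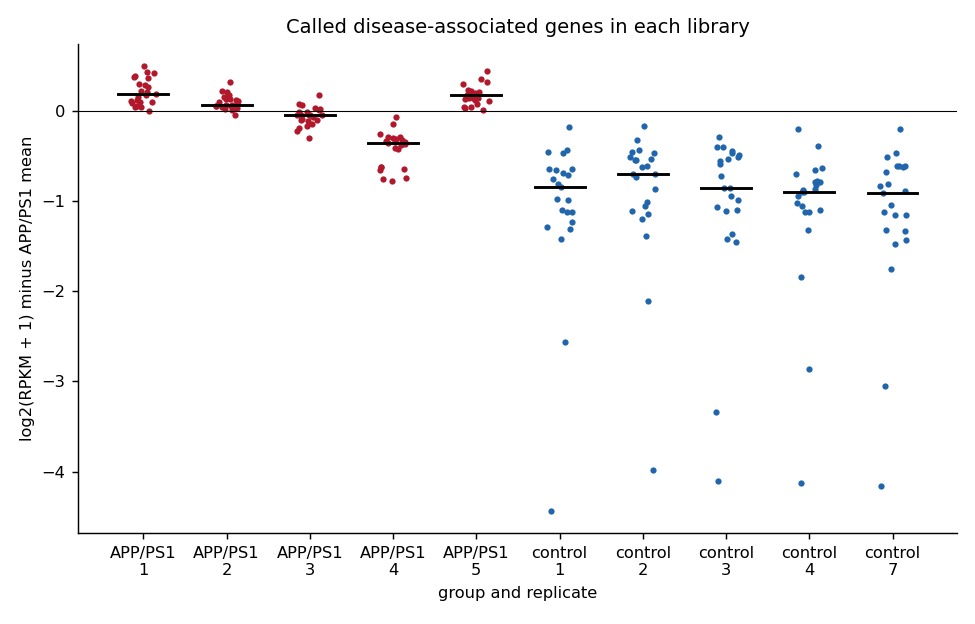
Each point is 1 of the 23 called disease-associated genes in 1 library, as log2(RPKM + 1) minus the gene's mean over the 5 APP/PS1 libraries, with a black bar at the median. The APP/PS1 libraries are red and the controls blue. All points of APP/PS1 replicate 4 lie below 0, and the control medians lie below all APP/PS1 medians.

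To see which changes differ from those of another pathology, the APP/PS1 effect was tested against the effect of TauP301L over GFP, which shares no libraries with it. The difference was called for 117 of 13810 genes (0.847%), of which 47 were higher (0.34%) and 70 lower (0.507%) in APP/PS1 relative to tau, and with median-of-ratios scaling for 191 higher and 54 lower. Left out in turn, 12 of the 20 libraries moved this count by over 1.5 times, to 38, 68, 56 and 50 without APP/PS1 replicates 1, 2, 4 and 5, to 51, 47 and 55 without control replicates 2, 3 and 4, to 70, 46 and 178 without TauP301L replicates 1, 3 and 4, and to 70 and 57 without GFP replicates 2 and 3. Of the disease-associated genes 4 differed. Cst7 rose further with amyloid, to 47.5 ± 15.8 RPKM in APP/PS1 against 1.59 ± 0.29 RPKM in controls, while it averaged 5.37 ± 1.12 RPKM with TauP301L and 1.24 ± 0.447 RPKM with GFP (difference of effects 2.65 ± 0.28, adjusted p = 5.83e-05, limma). Ccl6 also rose further with amyloid (0.72 ± 0.15, adjusted p = 0.0255, limma), a call lost without APP/PS1 replicate 1 (0.0566) or 5 (0.0517).

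Apoe went the other way. Its log2 fold change was 0.90 ± 0.11 in APP/PS1 and 1.86 ± 0.15 with TauP301L, a difference of -0.96 ± 0.19 (adjusted p = 0.0247, limma). Its levels were 121 ± 22 RPKM in APP/PS1 and 63.5 ± 3.15 RPKM in their controls, and 88.2 ± 9.34 RPKM with TauP301L and 24.0 ± 5.92 RPKM with GFP (SD, n = 5 each), so the control levels of the 2 studies were apart. The call was lost without control replicate 3 (0.0506) or TauP301L replicate 3 (0.0561). Cybb, the catalytic subunit of the phagocyte NADPH oxidase, differed by -0.56 ± 0.08 (adjusted p = 0.00373, limma), with 1.16 ± 0.146 RPKM in APP/PS1 and 0.904 ± 0.0641 RPKM in controls, and 1.65 ± 0.152 RPKM with TauP301L and 0.595 ± 0.118 RPKM with GFP.

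Prnp did not follow in tau, where it was 11.8 ± 1.02 RPKM against 12.8 ± 1.81 RPKM with GFP (difference of effects 2.00 ± 0.11, adjusted p = 7.03e-10, limma), and App differed by 0.59 (adjusted p = 8.92e-04). Tyrobp rose by 0.65 ± 0.10 in APP/PS1 and by 0.51 with TauP301L, and Trem2 had 0.47 and 0.43. Their differences of effects were 0.14 and 0.04 (adjusted p = 0.704 and 0.931, limma). Of the 75 genes higher in APP/PS1, 24 were also called higher with TauP301L, which is 32.0% of the 75 and 26.7% of the 90 genes higher with TauP301L. In the tau comparison 1.25% of genes were called, 0.7% higher and 0.552% lower. Of the 114 genes lower in APP/PS1, 3 were also lower with TauP301L and 1 was higher. In the tau fit 69 of the 75 and 111 of the 114 were tested, and the rest were under its filter.

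The effect of ageing in males, 24 over 3 months, was wider, with 2073 of 14174 genes called (14.6%), 11.3% higher and 3.32% lower. Of the 75 genes higher in APP/PS1, 52 were among the 1602 genes higher with age (69.3% of the 75 and 3.25% of the 1602), and 1 was lower with age. Of the 114 genes lower in APP/PS1, 10 were also lower with age (8.77% of the 114 and 2.12% of the 471) and 2 were higher. In the ageing fit 70 of the 75 and 113 of the 114 were tested, and the rest were under its filter. The difference between the APP/PS1 and the ageing effect was called for 1917 of 14354 genes (13.4%), 276 higher (1.92%) and 1641 lower (11.4%) in APP/PS1 relative to ageing, and with median-of-ratios scaling for 797 higher and 927 lower. Of the disease-associated genes 11 differed. Cst7 again rose further with amyloid (difference 2.31 ± 0.31, adjusted p = 3.22e-04, limma), since it averaged 5.58 ± 2.74 RPKM at 24 months and 0.722 ± 0.115 RPKM at 3 months. Apoe had a smaller log2 fold change than with age, 0.90 against 1.83 (difference -0.94, adjusted p = 0.00213, limma). It averaged 121 RPKM in APP/PS1 and 63.5 RPKM in controls. At 24 months it averaged 101 RPKM, and at 3 months 27.5 RPKM. The level was thus higher in the controls than at 3 months, and the part of this in the difference was not tested.

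Homeostatic genes differed between amyloid and ageing. Of 25 tested in each, 0 were called in APP/PS1 and 20 were higher at 24 months, and the difference of effects was called for 16. Markers of other cells moved with age as well: 5 of 6 tested perivascular macrophage genes were higher at 24 months, 3 of 20 neuron genes were lower, and the lymphocyte gene Ighm averaged 30.4 ± 1.68 RPKM at 24 months (n = 4) and 18.1 ± 1.81 RPKM at 3 months (n = 5). The difference from the APP/PS1 effect was called for 5 perivascular macrophage and 3 neuron genes, and the part of these cells in the result was not tested. Tmem119 had -0.17 ± 0.08 in APP/PS1 and 0.65 in ageing males (difference -0.83, adjusted p = 5.18e-04, limma), and Cx3cr1 -0.03 ± 0.07 and 0.59 (difference -0.62, adjusted p = 5.99e-04). Cytosolic ribosomal protein genes likewise gave 0 called of 46 in APP/PS1 and 37 higher of 45 with age. The chemokine Ccl12, which attracts monocytes, was 9.95 ± 1.30 RPKM in APP/PS1 and 8.87 ± 3.07 RPKM in controls (SD, n = 5 each), and 13.3 ± 3.31 RPKM at 24 months (n = 4) and 2.91 ± 0.333 RPKM at 3 months (n = 5). Its difference of effects was -1.64 ± 0.25 (adjusted p = 5.54e-04, limma).

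**Figure D5:**
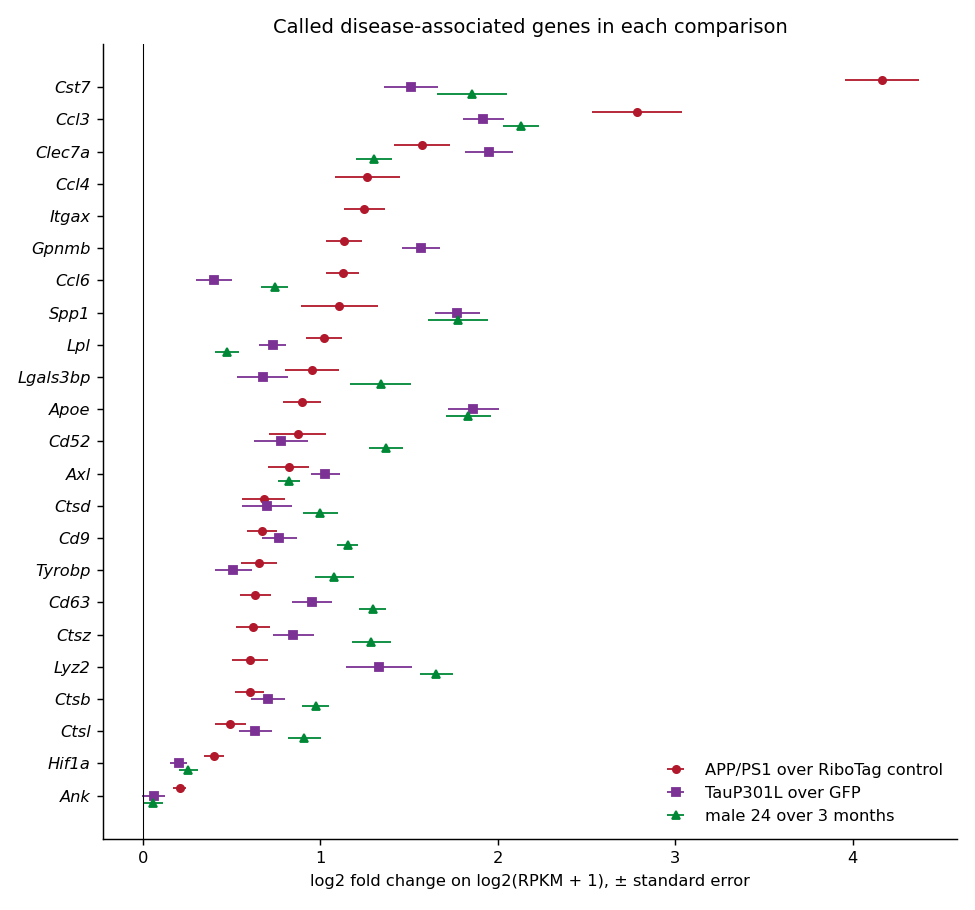
Log2 fold change ± standard error of the 23 called disease-associated genes for APP/PS1 over control (red circles), TauP301L over GFP (purple squares) and males of 24 over 3 months (green triangles), with no point where a gene was under the filter of that fit. Cst7 is at 4.16 with amyloid and below 2 in the other comparisons, and Apoe is at 0.90 with amyloid and above 1.8 in the others.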

How the data were processed

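Ribosome-bound RNA of forebrain microglia was measured by RNA-seq in 5 APP/PS1 and 5 RiboTag control libraries. The deposited values are RPKM per gene, made by the authors with CASAVA, TopHat2 and featureCounts on mm10, per the submitters' processing notes; versions and the use of strand are not stated in them. RPKM divides by depth, so a few abundant genes can shift all others. Values came out as whole reads within 0.01 for 100% of genes, which gave the depths and an alternative fit, limma voom. The 43346 genes were filtered at a mean of 1 RPKM and fitted as log2(RPKM + 1) with limma 3.58.1 in R 4.3.3 (trended variance, Benjamini-Hochberg, called at an adjusted p under 0.05). Differences of effects were fitted over both comparisons at once. On simulated data for APP/PS1 against control, the steps recovered 62 of 67 changes of 1.5-fold, with 17 false calls in all. For the differences from tau and from ageing they recovered 51 and 47 of 67, with 16 and 3 false calls. Changes under 1.5-fold were not simulated, and 2 of the 114 lower genes reached that fold. Male ageing was chosen since Xist was near 0 and the Y-linked Ddx3y was present in all 10 libraries.

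The genes named are the 12 highest and 8 lowest called genes whose libraries do not overlap, the 3 of each list with the smallest p, 9 fixed genes, and the 4 highest and 4 lowest of each difference, without predicted genes and pseudogenes. 1 gene of the rule is not reported here. Other genes were chosen after their values were seen. The genes and the 30 lists (739 of 742 entries matched) were chosen with earlier results of these data known. Promoters were cut to the 250 bases before the start. Same-numbered libraries are not paired by the labels. Alternatives changed the pseudocount, filter, scaling, test, covariates and libraries.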

Additional observations from a re-analysis of the deposited data

Results flagged for a closer look

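Differences of effects were tested with limma on the log2 scale, and the 4 highest and 4 lowest called genes of each follow. Against the TauP301L effect, the APP/PS1 effect was larger for Cst7 (2.65), Prnp (2.00) and Ccl6 (0.72). Fezf2, a transcription factor of deep-layer cortical neurons, differed by 0.67, with 0.12 in APP/PS1 and -0.54 with TauP301L. Tesc differed by -0.54, Cybb by -0.56, Apoe by -0.96 and the microRNA gene Mir7078 by -1.08. Mir7078 was called in 11 of the 20 leave-one-out fits.

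Against the effect of male ageing, the APP/PS1 effect was larger for Cst7 (2.31) and Prnp (2.06). Mir873a differed by 1.23 and Arc, an activity-induced gene of neurons, by 0.97, with -0.18 in APP/PS1 and -1.15 in ageing males. Sfi1, which encodes a centrosomal protein, differed by -1.26 and Mir7664 by -1.27. The chemokines Ccl8 and Ccl12 differed by -1.41 and -1.64. Very short genes such as these microRNA precursors rest on few reads.

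In 8 of 180 groups of 5 libraries, 1 library stood far from the other 4, and chance flags about 1 group in 20. APP/PS1 replicate 4 was low for H2-D1 (17.99 RPKM), Lgals3bp (19.4 RPKM) and Tyrobp (169.7 RPKM). APP/PS1 replicate 3 was high for Penk (17.2 RPKM). APP/PS1 replicate 5 stood at 2.51 RPKM for Fn1. Control replicate 2 was high for Spp1 (2.59 RPKM), control replicate 7 stood at 1.23 RPKM for Clic6 and control replicate 4 at 1.34 RPKM for Olig2.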

How the results depend on the processing

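The 189 calls of APP/PS1 against control became 85 with no filter on low values, 363 at a mean of at least 5 RPKM, 423 by limma voom (223 higher and 200 lower), 118 with the carry-over covariate, 103 with the microglial content covariate (added after the data were seen) and 11 at a fold of at least 2, which by construction only removes genes. They were 180 with a pseudocount of 0.1 RPKM, 146 with scaling and 179 in a fit shared with the tau libraries, and 62 to 243 with 1 library left out. With a replicate block the count was 47. Deviations from the group means correlated across genes at 0.000739 to 0.0553 between same-numbered libraries and at -0.115 to 0.0797 between the others. The labels do not pair them, and whether same-numbered samples were handled together was not tested. The block ended the calls of 20 of the 36 called genes named, with adjusted p of 0.0533 to 0.201 (limma). Of these 20, App (0.0533), Gfap (0.0539), Hif1a (0.112), Ccl4, Grn and Lgals3bp (0.125 each) and Hsph1 (0.125) had been called in all 10 leave-one-out fits. The 117 differences from tau became 59 with no filter, 241 at 5 RPKM, 245 with scaling, 29 with the replicate block and 38 to 178 with 1 library left out. The 1917 differences from ageing became 1037 at 5 RPKM and 1361 to 2295 with 1 library left out. For 36 called genes named above, 247 of 311 values under other settings and 263 of 359 leave-one-out values stayed called, and 0 reversed. Among 54 genes not called, 6 reversals lay near 0: Alas2 (-0.00416) and Mapt (-0.00734) with the replicate block, Cx3cr1 (0.00257) with scaling, and with 1 library left out Kl (-0.00286 to 0.0697), Mobp (-0.21 to 0.0105) and Ttr (-0.093 to 0.0126). The cause of these shifts was not tested. With 5 libraries a group, small changes are the least certain.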

Other observations

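Several called genes lay outside all 30 lists and are given here after their values were seen. Capg, which caps actin filaments in macrophages, averaged 2.61 ± 0.507 RPKM in APP/PS1 and 1.04 ± 0.161 RPKM in controls (SD, n = 5 each), a log2 fold change of 0.81 ± 0.10 (adjusted p = 0.00246, limma). Serpine2, an inhibitor of serine proteases, averaged 9.43 ± 0.815 RPKM in APP/PS1 and 6.43 ± 0.396 RPKM in controls (0.49 ± 0.06). Lilrb4, an inhibitory receptor of myeloid cells, averaged 2.18 ± 0.534 RPKM in APP/PS1 and 0.973 ± 0.0834 RPKM in controls (0.68 ± 0.09), so that it passed the filter on low values through the APP/PS1 libraries. Cd34, a sialomucin of progenitor and endothelial cells, rose by 0.33 ± 0.04. All 4 were called in each of the 10 leave-one-out fits.

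Among the lower genes, Rgs2, a regulator of G-protein signalling, was 2.15 higher on the log2 scale in saline pulldowns than in input. It averaged 21.1 ± 0.532 RPKM in APP/PS1 and 25.1 ± 0.52 RPKM in controls (SD, n = 5 each), a log2 fold change of -0.24 ± 0.03 (adjusted p = 0.00307, limma). Cct5, a subunit of the chaperonin that folds actin and tubulin, averaged 9.92 ± 0.402 RPKM in APP/PS1 and 12.4 ± 0.582 RPKM in controls. Adrb1, the β1-adrenergic receptor, averaged 7.46 ± 0.301 RPKM in APP/PS1 and 9.37 ± 0.467 RPKM in controls. Both fell by 0.29 on the log2 scale.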
